A study of Mus musculus with 18 samples.

Results

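The cytosolic ribosomal protein genes are the genes whose products, together with ribosomal RNA, form the small and large subunits of the cytoplasmic ribosome. Members were the rows of the deposited gene table that carry the KEGG ribosome pathway and whose symbol begins with Rpl (large subunit) or Rps (small subunit). The rule found 87 of the 55450 rows, 53 of them Rpl and 34 Rps, and left out 43 mitochondrial ribosomal protein genes of the same pathway. The members lie on 19 chromosomes, with 14 on chromosome 7. Most are ordinary coding genes with introns, and 4 are listed as processed pseudogenes, intron-free copies made by reverse transcription of an mRNA.

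RNA was taken from mouse embryonic fibroblasts (MEF cells), which make collagen and other matrix in culture, transiently transfected with 1 of 3 plasmids. The plasmids were empty pcDNA3, Col1a1-miR-29b, in which a rat Col1a1 collagen promoter drives human miR-29b-1 and EGFP, and CMV-miR-29b, in which the cytomegalovirus promoter drives the same insert. Both miR-29b plasmids also carry a red fluorescent marker. From 6 h after transfection cells of each plasmid were grown for 24 h with TGF-β, a cytokine that induces matrix genes, or without it, which gives 6 groups of 3 libraries. All groups were transfected, so no group shows untransfected cells, and the plasmids were present only in the cells that took them up. In each Col1a1-miR-29b group 1 library carries no replicate letter that matches a sample title, and it was used by its group.

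Total counts per library ran from 65898017 to 80332633, with a median of 74155860. The 8 fibroblast markers checked summed to between 3244 and 7717 CPM (counts scaled to a common library size) in every library, and their sum was higher in the groups with TGF-β (6740 to 7717 in empty vector cells, against 4174 to 4598 without). Of these markers Thy1 was near absent, at 0 to 8 counts. Epithelial and endothelial markers summed to at most 3.05 CPM, and immune markers to 8.75 to 13.4, nearly all of it Cd68. The part of these marker levels in the results was not tested.

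Ribosomal protein genes are among the most strongly transcribed genes of growing cells. Their mRNAs typically start with a C followed by a run of pyrimidines, the terminal oligopyrimidine (TOP) motif, through which the mTOR kinase and the RNA-binding protein LARP1 control how well they are translated. Because each subunit needs a single copy of nearly every protein, the amounts of the proteins are kept in balance, and unassembled proteins are degraded. These are steps on translation and protein that RNA sequencing does not measure. In bulk RNA, less RNA per cell and fewer cells that express a gene cannot be told apart.

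The members are short, compact genes. For each gene 1 annotated mRNA was taken, principal where so marked, then by longest coding sequence and then by length. Over the 82 members with a coding transcript, this mRNA had a median length of 882 bases, against 2923 bases over 13619 other coding genes with a mean count of at least 10. The median 3′ UTR was 85.5 bases against 955. Median GC content was close, at 51.6% and 50.5%, and members had a median of 5 exons against 9. Small nucleolar RNAs, which guide the chemical modification of ribosomal RNA, were annotated inside 30 of the 82 members (36.6%), against 185 of 13619 other genes (1.36%). Rpl4, named after these counts were seen, held 5 of them, and Rpl13a held 4.

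The microRNA that both plasmids make is shown first, since its seed decides which mRNAs can pair with it. Its mature strand, taken from the mouse RefSeq entry, is printed 5′ to 3′ with the seed, bases 2 to 8, in capitals.
miR-29b-3p: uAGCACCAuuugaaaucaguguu
The matching site in an mRNA reads TGGTGCT. It was found in the annotated 3′ UTR of 5 of the 82 members (6.10%) and of 1877 of the 13619 other genes (13.8%). The members were Rps15a with 4 sites, Rps3 with 2, and Rps20, Rpl22 and Rpl5 with 1 each. Only the 3′ UTR of the 1 transcript taken per gene was searched. None of the 5 passed the threshold in a comparison of CMV-miR-29b with the empty vector, where at most 0.00945% of all genes did. Rpl5 passed for Col1a1-miR-29b against the empty vector with TGF-β, as given below. For CMV-miR-29b with TGF-β their log2 fold changes were −0.02 for Rps15a, −0.12 for Rps3, 0.35 for Rps20, −0.03 for Rpl22 and −0.13 for Rpl5. Rps20 stood at separate levels in different libraries, as described below. With TGF-β, 1 of 3 CMV-miR-29b libraries and 0 of 3 empty vector libraries were at its upper level, so its value rests on 1 library.

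Promoter sequences from RefSeq (build GRCm38.p6, 250 bases before to 50 after each start) were available for 65 members, with 77 starts. At the annotated start a C followed by at least 4 pyrimidines stood in 14 of the 77 (18.2%), against 2.51% of 32851 starts of all genes. CCGGAAG, the letters bound by ETS factors such as GABP, were found on either strand in 35.1% of member promoters and 8.86% of all, and AAGATGG, the core letters of YY1 sites, in 14.3% and 6.34%. TATAAA stood in 10.4% and 13.6%. These are letter matches on either strand, except the start motif, which was read on the coding strand. The start motif can share letters with CTTCCGG or CCATCTT, the same motifs read on the other strand.

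The windows below run from 70 bases before to 20 after the start, on the gene's strand. Rps6 and Rpl35 are shown for their pyrimidine start, Rpl38 for the start and CCGGAAG together, and Rpl41 for CCGGAAG alone. Rps27 and its retro-copy Rps27rt are shown because their coding sequences are identical while their upstream sequences are not, and Rps25 and Rps27l because they are called in comparisons below. Capitals mark the 3 motifs above on either strand and the pyrimidine run at the start.
Rps6 (chr4:86857348-86857437, minus strand): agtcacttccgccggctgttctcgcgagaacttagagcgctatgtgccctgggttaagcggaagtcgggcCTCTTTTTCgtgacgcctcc
Rpl35 (chr2:39005112-39005201, minus strand): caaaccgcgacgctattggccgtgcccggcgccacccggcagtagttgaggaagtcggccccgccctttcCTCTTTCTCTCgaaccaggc
Rpl38 (chr11:114668510-114668599, plus strand): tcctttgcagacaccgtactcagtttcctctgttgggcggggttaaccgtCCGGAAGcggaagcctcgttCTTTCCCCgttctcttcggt
Rpl41 (chr10:128549149-128549238, minus strand): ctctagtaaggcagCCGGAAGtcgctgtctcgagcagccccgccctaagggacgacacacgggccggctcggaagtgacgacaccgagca
Rps27 (chr3:90213629-90213718, minus strand): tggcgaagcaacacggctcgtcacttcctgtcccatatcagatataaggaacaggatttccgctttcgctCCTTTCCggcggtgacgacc
Rps27rt (chr9:114982720-114982809, minus strand): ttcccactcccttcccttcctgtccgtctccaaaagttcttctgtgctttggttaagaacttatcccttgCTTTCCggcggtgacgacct
Rps25 (chr9:44407644-44407733, plus strand): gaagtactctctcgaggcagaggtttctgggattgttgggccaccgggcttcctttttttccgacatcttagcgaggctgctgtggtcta
Rps27l (chr9:66946016-66946105, plus strand): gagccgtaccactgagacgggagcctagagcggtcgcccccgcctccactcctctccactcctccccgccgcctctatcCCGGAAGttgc

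Levels were compared between genes on the FPKM scale, which is scaled for transcript length and library total, over the 16 libraries whose FPKM columns could be tied to samples. The members had a median FPKM of 161.1, against 7.89 over the 12651 genes with a mean FPKM of at least 1. The Rpl and Rps medians were close, at 159.0 and 169.6, and 61 of 87 members lay at 100 or above. Of the 50 rows with the highest mean FPKM, 7 were members.

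Rplp1, an acidic stalk protein that contacts the translation factors, was the highest member at 1058 ± 118 FPKM (SD over 16 libraries). Rpl8 followed at 812 ± 36, Rps2, of the small subunit, at 801 ± 55.9, Rpl19 at 691 ± 24.0 and Rplp0, the base of the stalk, at 667 ± 31.8. Rpl8 and Rps2 differed by less than the SD of either, as did Rpl19 and Rplp0. The 5 highest members held 21% of the summed member FPKM. Rplp2, the other acidic stalk protein, stood at 140 ± 11.6 FPKM, far under Rplp1, with which it forms dimers in the ribosome. Mean counts over 18 libraries, not scaled for length, were closer, at 43824 for Rplp1 and 24398 for Rplp2. The size of the gap, and the order of members by FPKM, thus depend on the transcript lengths used.

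**Figure D1:**
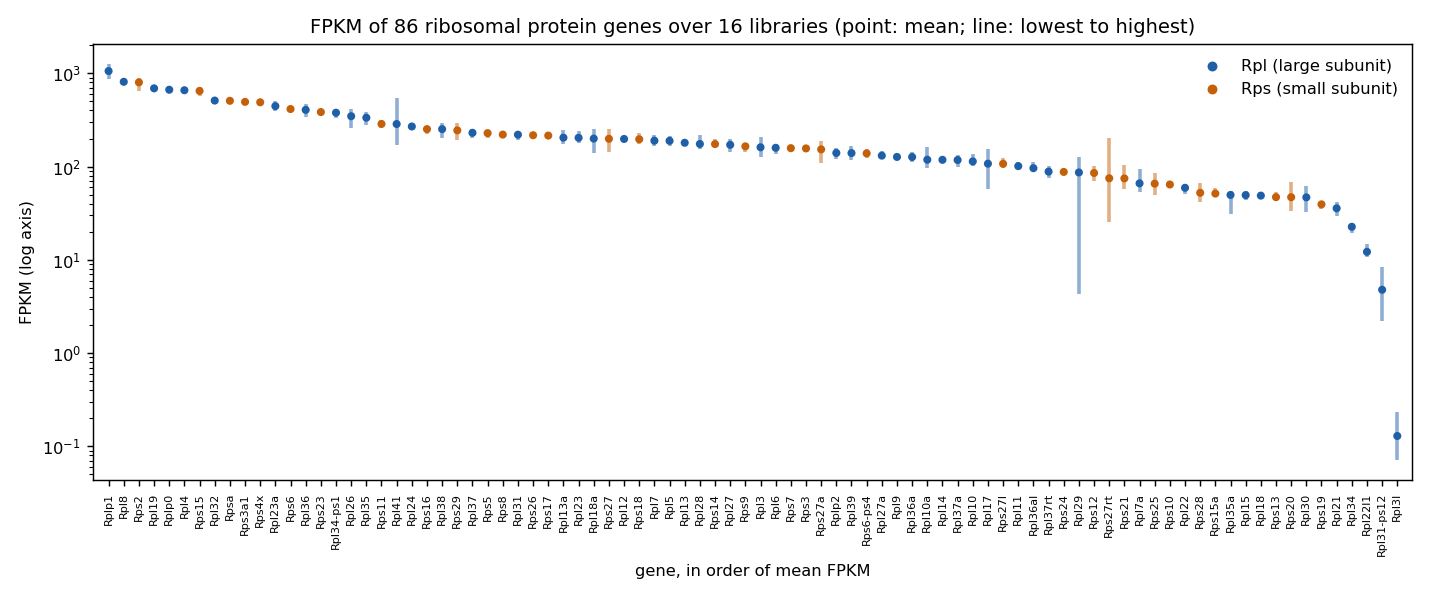
Mean FPKM of the members over 16 libraries on a log axis, in rank order, with a line from the lowest to the highest library. The members spread widely around the median of 161.1 FPKM, from Rplp1 at 1058 to 13 members under 50, with Rpl3l at 0.13.

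The other members with a named role were also well expressed. Rpsa, which is both a small-subunit protein and the laminin receptor, had 508 ± 17.8 FPKM, and Rps6, the protein that S6 kinases phosphorylate, had 414 ± 19.6. Rpl5 and Rpl11, which bind ribosomal RNA together and can restrain Mdm2, the inhibitor of p53, had 189 ± 11.9 and 101.2 ± 4.3. Rps27a, made as a fusion to ubiquitin, had 153 ± 18.2.

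The paralogs Rpl3l, Rpl22l1, Rps27l, Rpl36al and Rpl39l each stood lower than the gene they resemble. Rpl3l, the heart and skeletal muscle form of Rpl3, had 0.13 FPKM against 161 for Rpl3, with 74.4% identity over the aligned coding sequence. Rpl22l1 had 12.2 FPKM and Rpl22 had 59.2, with 74.6% identity. Rps27l, a paralog known as a p53 target, had 107 and Rps27 had 199, with 76.3% identity. Rpl36al had 96.2 FPKM against 127 for Rpl36a, with 87.9% identity. Rpl39l, the testis-enriched form of Rpl39, had 0 counts in all 18 libraries, which allows at most 0.0455 CPM in the shallowest library, while Rpl39 averaged 140 FPKM over 16 libraries. The other members of lowest level were Rpl31-ps12, a pseudogene, at 4.78 FPKM, and Rpl34 at 22.6. Rpl34-ps1, a processed pseudogene and itself a member, is 99.4% identical to Rpl34 over the coding sequence and stood at 378 FPKM. Summed with its copies, Rpl34 ran from 210 to 239 CPM over the libraries, against 56.9 to 73.8 alone, and the level of Rpl34 is uncertain. Rpl34-ps1 was named after its values were seen.

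Near-identical copies limit what a member's count means. At 90% identity or more over at least 70% of the coding sequence, 998 other rows of the table matched a member, 841 of them with a count in some library, and 79 members had at least 1 copy, with a median of 8 and at most 77. The copies together held 0.858% to 1.01% of all counts. In 36 members the copies held more than 10% of the counts of the member and its copies. The share was 84.3% for Rpl21, 76.1% for Rpl7a, 72.7% for Rpl29 and 51.5% for Rplp0, against 8.81% for Rps25, 0.962% for Rps15 and 0.659% for Rps27l. How the authors divided reads between a gene and its copies is not given in the sources used here, so the levels of these members are uncertain.

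As a share of all counts the members were steady. They held 3.25% to 3.63% of the counts of a library. In empty vector cells the mean share was 3.44% ± 0.15 untreated and 3.37% ± 0.11 under TGF-β, for Col1a1-miR-29b 3.40% ± 0.053 and 3.44% ± 0.13, and for CMV-miR-29b 3.58% ± 0.041 and 3.36% ± 0.093 (SD, n = 3 each). The ratio of the mean share with TGF-β to that without was 0.980, 1.01 and 0.936 for the 3 plasmids. In CMV-miR-29b cells the 3 libraries without TGF-β (3.55% to 3.63%) all lay above the 3 with it (3.25% to 3.43%), while the groups overlapped for the other plasmids. No test was made of these shares, and 3 libraries against 3 cannot reach a p under 0.10 in an exact permutation test.

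**Figure D2:**
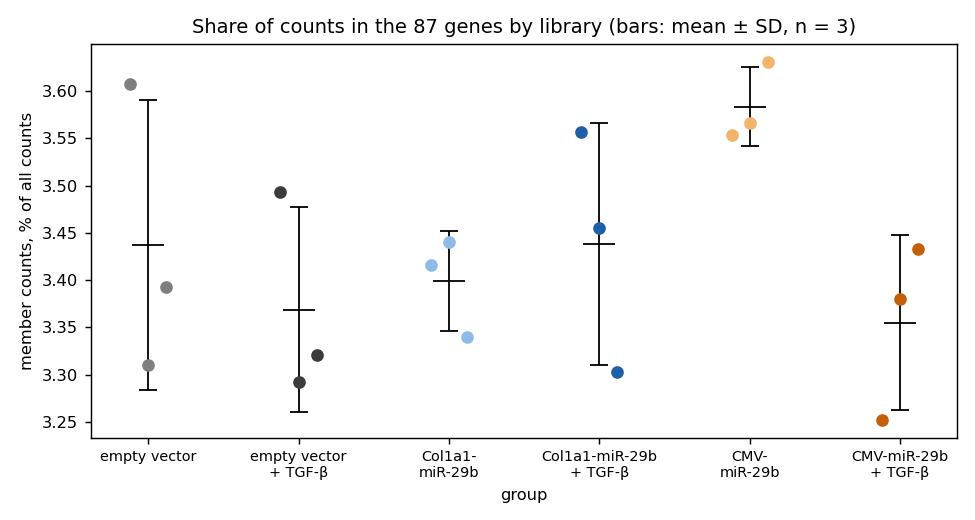
Percent of all counts held by the 87 members in each library, with the mean and SD of each group of 3 libraries. The CMV-miR-29b groups with and without TGF-β do not overlap, and the other plasmids' groups do.

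Changes between groups were tested with edgeR's quasi-likelihood test on the counts, over 21161 genes at an adjusted p of 0.05. Of the 87 members 86 passed the filter on low counts and Rpl39l did not. Log2 fold changes are relative to TMM-normalised library sizes, and levels in single libraries are given as TMM-normalised CPM, which compare a gene only with itself. The median over all genes lay within 0.02 of 0 in each comparison, and the median standard error of a member's log2 fold change was 0.065. The p-values measure only the spread between these libraries, since the sources state 3 repeated experiments per group without tying libraries to separate cultures.

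TGF-β left the members of empty vector cells almost where they were. Their median log2 fold change was 0.02, with 50 of 86 above 0, and 1 rose and 0 fell past the threshold, where 3.88% of all genes rose and 2.01% fell (5.88% in all). The gene that rose was Rpl10, an X-linked large-subunit protein near the peptidyl transferase centre. Its CPM was 268, 247 and 251 in untreated cells and 317, 268 and 322 in treated cells. The lowest treated library (267.7) and the highest untreated one (267.6) were level, and the log2 fold change was 0.24 ± 0.064 (SE, n = 3, edgeR adjusted p = 0.0341). Rpl10 has copies that hold 44.5% of its family's counts, and the sum over the family was not called, at 0.18 (edgeR adjusted p = 0.144). The call was also lost without library d or e of the untreated group or c or e of the treated group, with edgeR adjusted p from 0.134 to 0.227. Groups without overlap were found for 4 of 86 members higher and 5 lower, against 11.3% and 9.69% of all genes.

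In Col1a1-miR-29b cells TGF-β gave a median of 0.03, with 65 of 86 members above 0. None passed the threshold, where 3% of all genes rose and 1.32% fell (4.32% in all). At an unadjusted p under 0.05 edgeR gave 3 members against 14.3% of all genes, and DESeq2 called 0. The largest rise was that of Rpl29 (1.55 ± 1.28) and the largest fall that of Rps27rt (−0.64 ± 0.77), both with a standard error near the value itself. Groups without overlap numbered 6 higher and 1 lower, against 11.8% and 10.2% of all genes.

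In CMV-miR-29b cells the members' median was −0.09, with 11 of 86 above 0, while the median over all genes was 0.00. Past the threshold 0 rose and 1 fell, against 3.08% and 1.87% of all genes (4.95% in all). These shares are edgeR's. DESeq2 called 3 members, and its share of all genes is not given here. Rps15, which sits at the head of the small subunit, fell, from 488, 492 and 470 CPM in untreated cells to 403, 426 and 436 in treated cells. The groups did not overlap, and the change was −0.20 ± 0.052 (SE, n = 3, edgeR adjusted p = 0.0397). The call was lost without any library of the comparison but CMV-miR-29b with TGF-β e, with edgeR adjusted p from 0.0509 to 0.195. At an unadjusted p under 0.05 there were 17 of 86 members, against 15.6% of all genes. Without overlap, 21 of 86 members were lower with TGF-β and 0 were higher, against 9.89% and 11.1% of all genes. Among them were Rps15, Rpsa, Rplp2, Rps27a and Rpl7, with Rpl10a chosen after its values were seen. The share of counts held by the members was lower in the same libraries.

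**Figure D3:**
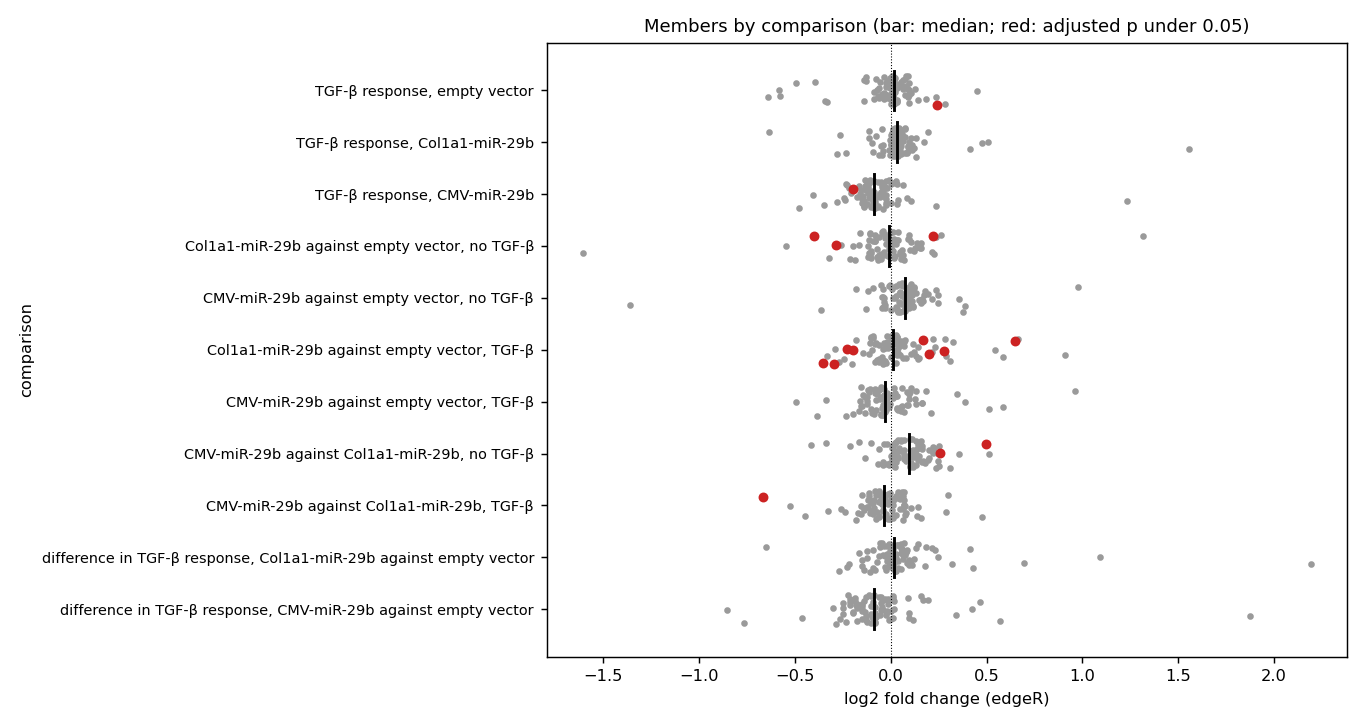
Log2 fold changes of the 86 tested members in each of the 9 comparisons of 2 groups and for both differences in response, as points, with their median as a bar and members past the threshold in red. The medians lie within 0.10 of 0, and the CMV-miR-29b response to TGF-β lies under 0 for 75 of 86 members.

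How far each miR-29b plasmid changed the TGF-β response of the empty vector was tested as a contrast of the same model. No gene of the 21161 passed, so no member did, and 0% of all genes were called. At an unadjusted p under 0.05 edgeR gave 1 member for Col1a1-miR-29b and 15 for CMV-miR-29b, against 4.54% and 5.34% of all genes, and DESeq2 called 0 members in both. The members' median difference was 0.02 for Col1a1-miR-29b and −0.09 for CMV-miR-29b, with 18 of 86 above 0 in the latter. The largest single values were those of Rpl29, at 2.19 ± 1.79 and 1.87 ± 1.78. Both contrasts use the same empty vector libraries.

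Without TGF-β, Col1a1-miR-29b cells differed from empty vector cells by a members' median of −0.01, with 37 of 86 above 0. Past the threshold 1 member rose and 2 fell, where 2.57% of all genes rose and 3.7% fell (6.27% in all, by edgeR). DESeq2 called 7 members, and its share of all genes is not given here. Groups without overlap numbered 8 higher and 9 lower, against 14.9% and 14.1%. Rps27l rose, from 90.1, 87.4 and 91.6 CPM in empty vector cells to 102, 110 and 102. The groups did not overlap, and the log2 fold change was 0.22 ± 0.049 (SE, n = 3, edgeR adjusted p = 0.0165). It was lost without library c or d of the empty vector or d of Col1a1-miR-29b, with edgeR adjusted p from 0.0635 to 0.109.

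Rpl6, a large-subunit protein, fell the most clearly, from 617, 585 and 585 CPM to 470, 468 and 529, a change of −0.28 ± 0.059 (SE, n = 3, edgeR adjusted p = 0.0126). It was called in 5 of 6 fits that left out a library, and lost without the empty vector library c (edgeR adjusted p = 0.0532). Rps27a fell by 0.40 ± 0.10 (SE, n = 3, edgeR adjusted p = 0.0344), from 359, 364 and 344 CPM to 238, 325 and 247. Neither pair of groups overlapped. The Rps27a call was lost without empty vector c or d or without Col1a1-miR-29b c or the unlettered library, with edgeR adjusted p from 0.0864 to 0.12. The fall of Rps27a was not found in the sum of the gene and its copies, as described below.

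With TGF-β the same plasmid differed from the empty vector in more members, and also in more of all genes (12.9% against 6.27% without TGF-β). The median was 0.01, with 45 of 86 above 0, and 4 rose and 4 fell, where 5.31% of all genes rose and 7.63% fell (12.9% in all). Rps25, Rpl38, Rpl35 and Rps27l rose, and Rpl13a, Rpl10, Rpl7 and Rpl5 fell. At an unadjusted p under 0.05 there were 19 of 86 members, against 26.1% of all genes. In all 8 called members the groups did not overlap, among 9 members higher and 8 lower in every library, against 14.8% and 15.2% of all genes.

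Rps25, a small-subunit protein used by some viral internal entry sites, rose the most, from 161, 160 and 159 CPM to 256, 257 and 239. The change was 0.65 ± 0.16 (SE, n = 3, edgeR adjusted p = 0.0156). The call was lost without empty vector c or e or Col1a1-miR-29b c, with edgeR adjusted p from 0.0523 to 0.0587, and its levels fall into separate ranges over the libraries, as described below. Rpl38, which is needed for translation of some Hox mRNAs, rose by 0.28 ± 0.075 (SE, n = 3, edgeR adjusted p = 0.0238), from 145, 136 and 127 CPM to 177, 159 and 159. Without empty vector e or Col1a1-miR-29b c it was not called (edgeR adjusted p = 0.112 and 0.117). Rpl35 rose by 0.20 ± 0.060 (SE, n = 3, edgeR adjusted p = 0.0381), from 445, 457 and 444 CPM to 493, 535 and 519. Rps27l, described above, again rose, by 0.17 ± 0.049 (SE, n = 3, edgeR adjusted p = 0.0354), from 95.0, 95.2 and 91.3 CPM to 105, 107 and 104. Neither of the last pair was called when any library of the comparison was left out, with edgeR adjusted p from 0.0521 to 0.137.

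Rpl10, the member that rose with TGF-β in empty vector cells, fell here by 0.30 ± 0.064 (SE, n = 3, edgeR adjusted p = 0.00677), from 317, 268 and 322 CPM to 246, 248 and 243, and was called without any 1 of the 6 libraries. Rpl13a, which has a role in silencing of inflammatory mRNAs outside the ribosome, fell by 0.35 ± 0.10 (SE, n = 3, edgeR adjusted p = 0.0317), from 502, 524 and 583 CPM to 430, 425 and 406. It was lost without empty vector e or any Col1a1-miR-29b library, with edgeR adjusted p from 0.0643 to 0.149. Rpl7, of the large subunit, fell by 0.23 ± 0.060 (SE, n = 3, edgeR adjusted p = 0.0199), from 647, 564 and 667 CPM to 512, 533 and 558, and was lost without empty vector c or e or Col1a1-miR-29b c (edgeR adjusted p from 0.0663 to 0.118). Rpl5 fell by 0.20 ± 0.060 (SE, n = 3, edgeR adjusted p = 0.0418), from 958, 815 and 914 CPM to 775, 810 and 760. It was lost without empty vector c or e, Col1a1-miR-29b c or its unlettered library, with edgeR adjusted p from 0.118 to 0.158. On a list of 16 genes mutated in Diamond-Blackfan anaemia, a failure of red cell formation, Rpl5 alone passed, and the list's median was 0.04. The list does not cover every such gene and does not hold Rpl35, which was called here.

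The calls for the Col1a1-miR-29b vector depended on an adjustment for transcript length and GC content. With offsets for both, fitted per library, 0 members rose and 19 fell in untreated cells in place of 1 and 2, with a median of −0.16, while 482 of all 21161 genes rose and 699 fell. Under TGF-β 0 rose and 34 fell in place of 4 and 4, with a median of −0.17, while 862 of all genes rose and 1351 fell. Under TGF-β the log2 fold change of Rps27l went from 0.17 to −0.02, that of Rpl35 from 0.20 to 0.01, that of Rpl38 from 0.28 to 0.05 and that of Rps25 from 0.65 to 0.52, none of them called. In untreated cells Rps27l went from 0.22 to 0.00 and was no longer called. For CMV-miR-29b against Col1a1-miR-29b without TGF-β, described below, 18 members were higher with CMV-miR-29b and 0 lower, in place of 2 and 0. Of all genes 263 were higher with CMV-miR-29b and 156 lower. The cause was not tested.

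CMV-miR-29b gave no member past the threshold against the empty vector. Without TGF-β the median was 0.07, with 68 of 86 members above 0, and 1 of all genes (0.00473%) was called. At an unadjusted p under 0.05 there were 10 members, against 5.46% of all genes, and DESeq2 called 0. The 3 libraries with CMV-miR-29b lay above the 3 of the empty vector for 11 members and under them for 0, against 5.42% and 5.15% of all genes. The largest values were those of Rps27rt (0.98 ± 0.77) and Rpl29 (−1.36 ± 1.27). With TGF-β the median was −0.03, with 34 of 86 above 0, 0.00945% of all genes were called, 11 members had an unadjusted p under 0.05 against 12% of all genes, and DESeq2 called 0. Groups without overlap numbered 6 higher and 7 lower, against 7.86% and 8.01%. The largest values were those of Rps27rt (0.96 ± 0.77) and Rpl3l (−0.50 ± 0.53).

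CMV-miR-29b was also set against Col1a1-miR-29b, which shares libraries with the comparisons above. Without TGF-β the members' median was 0.10, with 71 of 86 above 0. Past the threshold 2 rose and 0 fell, where 1% of all genes rose and 0.803% fell (1.81% in all, by edgeR). DESeq2 called 10 members, and its share of all genes is not given here. Rps27a rose by 0.50 ± 0.10 (SE, n = 3, edgeR adjusted p = 0.0277), from 238, 325 and 247 CPM with Col1a1-miR-29b to 385, 341 and 415 with CMV-miR-29b. Rpl7 rose by 0.25 ± 0.060 (SE, n = 3, edgeR adjusted p = 0.0456), from 494, 494 and 543 to 604, 575 and 648. Neither pair overlapped. Rps27a was lost without Col1a1-miR-29b c or its unlettered library or CMV-miR-29b c or e (edgeR adjusted p from 0.0777 to 0.115), and Rpl7 without any library but CMV-miR-29b d (edgeR adjusted p from 0.0526 to 0.151). At an unadjusted p under 0.05 there were 26 of 86 members, against 16.4% of all genes. Groups without overlap were found for 24 members higher and 0 lower, against 10.9% and 11.1% of all genes. With TGF-β the median was −0.04, and 0 rose and 1 fell, where 1.02% of all genes rose and 0.912% fell (1.93% in all). Rps25 fell by 0.67 ± 0.16 (SE, n = 3, edgeR adjusted p = 0.048), from 256, 257 and 239 CPM to 155, 164 and 155, and was not called when any library was left out, with edgeR adjusted p from 0.109 to 0.161. Groups without overlap numbered 1 higher and 11 lower, against 11.6% and 11.7% of all genes.

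Some members, Rpl29 most clearly, stood at separate levels in different libraries, also within a group. The highest over the lowest CPM was under 1.5 for 67 of 86 members, with a median of 1.30, and it reached 2 in 7. The largest gap between libraries next to each other in level, with 3 or more libraries on each side, was 19.3-fold for Rpl29, 1.82 for Rpl41, 1.40 for Rps27rt, 1.39 for Rps20, 1.38 for Rps25, 1.35 for Rpl31-ps12 and 1.29 for Rpl3l. These members, other than those named above by rule, were chosen after their values were seen. A largest gap exists in any set of values, and no expected size was computed for it. Rpl3l averaged 19.4 counts per library and Rpl31-ps12 149, and Rps27rt was spread from 10.7 to 85.1 CPM. Whether counting error or a continuous spread gives the gaps of these 3 was not tested.

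Rpl29, a large-subunit protein with heparin-binding properties, stood at 127 to 163 CPM in 13 libraries and at 5.50 to 6.56 in 5. The 5 low libraries were empty vector with TGF-β e, Col1a1-miR-29b d and its unlettered library, and CMV-miR-29b d and e, so low and high libraries occur in the same group. The sum of Rpl29 and its copies ran from 269 to 462 CPM, and it was 269 to 292 in the same 5 libraries and 401 to 462 in the other 13. Rpl41, the smallest ribosomal protein, stood at 232 to 314 CPM in 14 libraries and at 574 to 710 in 4, which were of 4 different groups.

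Rps25 stood at 149 to 164 CPM in 9 libraries and at 228 to 257 in 9. The high libraries were all 6 of the Col1a1-miR-29b plasmid, 2 of the empty vector without TGF-β and 1 of CMV-miR-29b without TGF-β. Rps20 stood at 158 to 184 CPM in 11 libraries and at 257 to 307 in 7. Among these 4 genes, all libraries of a plasmid shared a level only for Rps25. Summing Rps25 with its copies left it ranging from 164 to 279 CPM, where the copies hold 8.81% of the counts.

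**Figure D4:**
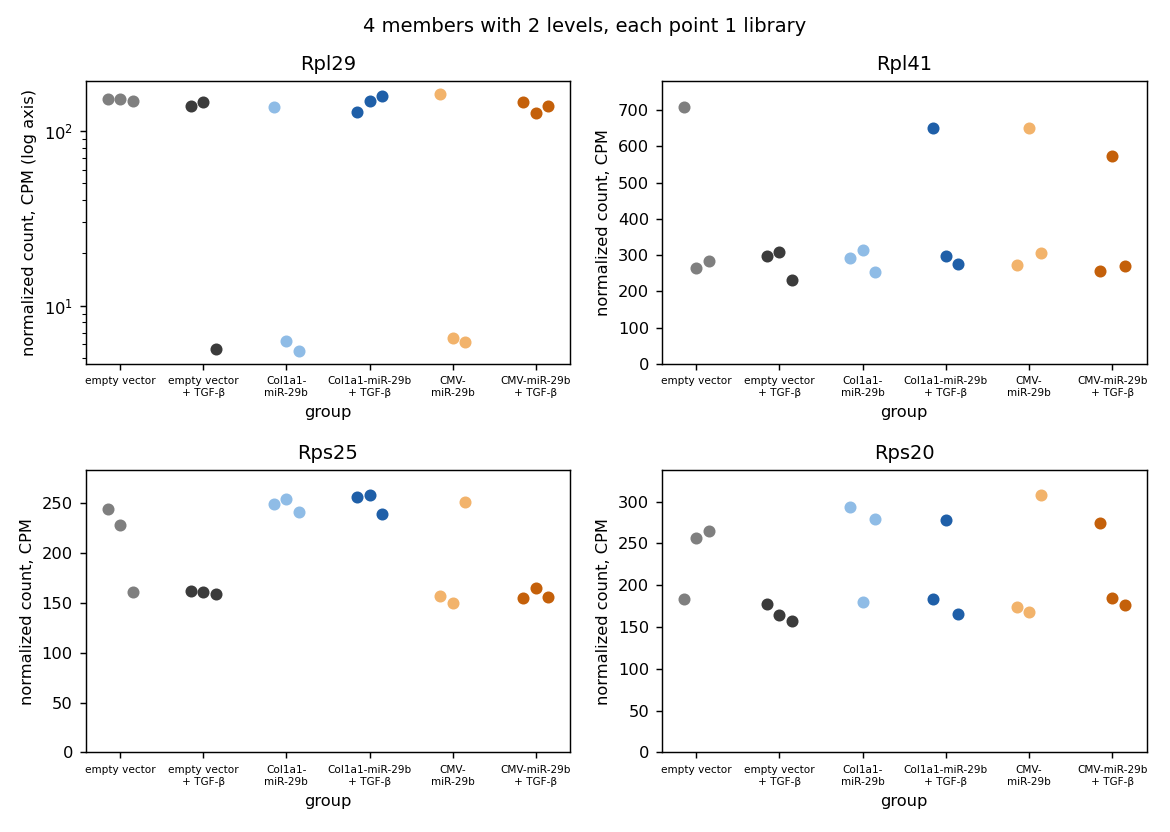
Normalised CPM in each of the 18 libraries, by group, for Rpl29 (log axis), Rpl41, Rps25 and Rps20. Each gene shows separate levels, and libraries of the same group often fall on both sides. For Rps25 all 6 libraries of the Col1a1-miR-29b plasmid lie at the upper level.

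Rps27a and Rps27 varied in the opposite direction to a copy, which was chosen after its values were seen. Rps27a ran from 238 to 415 CPM over the libraries (coefficient of variation 13.5%) and its pseudogene Rps27a-ps2 from 26.1 to 126 (47.1%), while their sum ran from 354 to 441 (5.93%). In untreated Col1a1-miR-29b cells the gene averaged 270 ± 47.9 CPM and the copy 95.5 ± 37.7, against 356 ± 10.47 and 38.8 ± 8.5 in empty vector cells (SD, n = 3). The sum was 365 ± 12.2 against 394 ± 3.8. For the sum over all copies of Rps27a, the log2 fold change was −0.09 (edgeR adjusted p = 0.341) between these groups and 0.15 (edgeR adjusted p = 0.146) between CMV-miR-29b and Col1a1-miR-29b. Rps27 and Rps27rt, whose coding sequences are 100% identical over 255 bases, varied by 14.1% and 72.6%, and their sum by 7.78%.

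**Figure D5:**
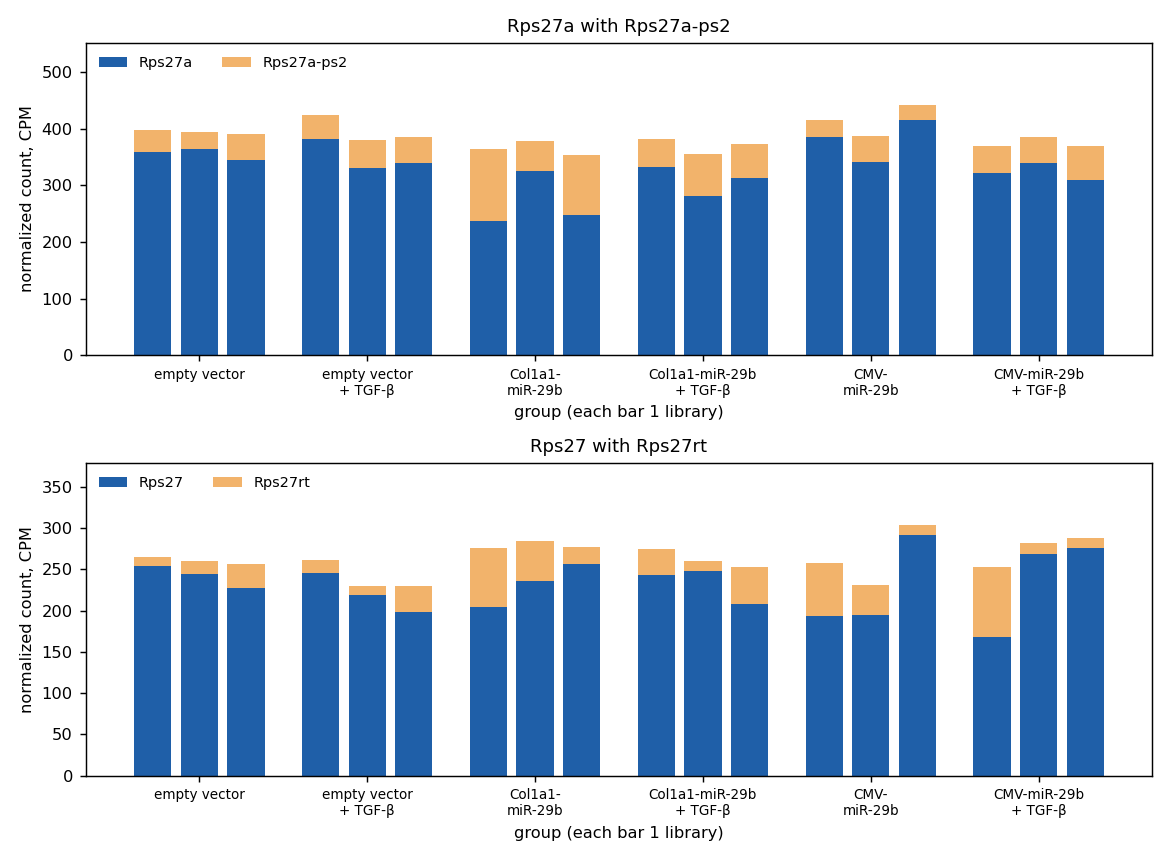
Normalised CPM of Rps27a stacked with Rps27a-ps2 (top) and of Rps27 with Rps27rt (bottom), with 1 bar for each of the 18 libraries. The stacked heights vary by 5.93% and 7.78% (coefficient of variation), less than the genes alone.

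Other members with many copies also varied more alone than in the sum with those copies. A smaller coefficient of variation does not by itself show that a gene and its copies vary in opposite directions, and for Rpl29 the 5 low libraries stayed lowest in the sum. The coefficient of variation over the libraries fell from 22.4% for Rpl17 to 7.94% for the sum with its copies, from 16.7% to 5.52% for Rpl30, from 17.8% to 8.98% for Rpl7a and from 60.8% to 17.6% for Rpl29. The sums hold the members' own counts, so calls on them are not independent of the calls above, and the share of all genes called in this fit is not given here. On such sums edgeR called Rps27l (0.21) and Rpl6 (−0.21) for Col1a1-miR-29b against the empty vector without TGF-β, as it did for the members. With TGF-β it called Rps25 (0.64), Rpl38 (0.28), Rpl35 (0.22), Rps27l (0.17), Rpl13a (−0.35), Rpl7 (−0.21) and also Rpl37a (0.23), while Rpl10 (−0.20, edgeR adjusted p = 0.0537) and Rpl5 (−0.18, edgeR adjusted p = 0.0611) lay just outside the threshold.

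Other genes around the ribosome were read from lists of their own, in the fit without offsets for transcript length and GC content. How these lists move with the offsets was not examined. For Col1a1-miR-29b against the empty vector with TGF-β, where 5.31% of all genes rose and 7.63% fell, 10 of 43 mitochondrial ribosomal protein genes rose and 0 fell, with a median of 0.11. Among 18 other genes with TOP mRNAs 0 rose and 5 fell, with Hnrnpa1, a splicing regulator, at −0.42 ± 0.074, Npm1, a nucleolar chaperone, at −0.28 ± 0.083 and Eif4b, an initiation factor, at −0.27 ± 0.069. Of 40 ribosome biogenesis genes 8 rose and 2 fell, led by Nop10, of the box H/ACA particle, at 0.38 ± 0.053. Nolc1, a nucleolar phosphoprotein, and Noc4l, a small-subunit assembly factor, both rose by 0.31, and Ddx10, an RNA helicase, fell by 0.21.

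Of 12 genes of RNA polymerase I and its factors, Rrn3 rose by 0.16 and Polr1b and Taf1b fell by 0.25 and 0.18. Of 15 mTOR pathway genes, Eif4ebp1, Rptor and Rps6kb1 fell, by 0.30, 0.23 and 0.14. Of 9 ribosomal protein chaperones and importins, Tsr2, a chaperone of Rps26, rose by 0.28 and the importins Kpnb1 and Ipo7 fell by 0.32 and 0.25.

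Without TGF-β, where 2.57% of all genes rose and 3.7% fell, Col1a1-miR-29b against the empty vector gave 5 mitochondrial genes higher and 0 lower, 0 and 4 other TOP genes, 4 and 1 biogenesis genes, 0 and 1 polymerase I genes, 1 and 3 mTOR genes and 0 and 0 chaperones. Larp1, the protein that binds the TOP motif, fell by 0.81 ± 0.15, from a mean of 340 to 194 CPM (edgeR adjusted p = 0.0075), and Rptor and Deptor, subunits of mTOR complexes, fell by 0.22 and 0.32. With CMV-miR-29b, Larp1 was 0.80 ± 0.15 higher than with Col1a1-miR-29b (edgeR adjusted p = 0.0172). It rose with TGF-β by 0.68 ± 0.15 in Col1a1-miR-29b cells (edgeR adjusted p = 0.014). All 3 of these comparisons use the same Col1a1-miR-29b libraries without TGF-β.

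Under TGF-β, 3.88%, 3% and 3.08% of all genes rose and 2.01%, 1.32% and 1.87% fell, in the order empty vector, Col1a1-miR-29b and CMV-miR-29b. Of the 9 chaperones and importins, Ipo5, an importin for ribosomal proteins, rose with TGF-β for all 3 plasmids, by 0.29, 0.26 and 0.22. Heatr3, an assembly factor that brings Rpl5 to the nucleus, fell with all 3, by 0.15, 0.19 and 0.16. Of the 12 polymerase I genes and factors Myc, a regulator of ribosome biogenesis, rose by 0.45 in empty vector cells. Of the 15 mTOR genes Deptor fell by 0.39 in the same cells. Tsr2 and Rps6kb2 fell by 0.43 and 0.26 in CMV-miR-29b cells. CMV-miR-29b with TGF-β had 4 of 40 biogenesis genes lower than Col1a1-miR-29b with TGF-β, where 0.912% of all genes were lower. These were Nhp2, Noc4l, Nop10 and Pes1, by 0.30, 0.29, 0.27 and 0.18. In the same comparison Tsr2 was lower by 0.44. Fau, which encodes a ribosomal protein as a fusion to a ubiquitin-like protein, and Rack1, a scaffold on the small subunit, did not pass the threshold in any comparison.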

How the data were processed

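Poly(A) RNA of 18 libraries in 6 groups of 3 was sequenced as paired ends. As described by the authors, reads went through cutadapt and FastQC, then HISAT2 for mapping and StringTie for assembly. A gene table was deposited by the authors, with a whole-number count per gene, not normalised, and an FPKM value scaled for length and library total, in which 0.0001 stands for 0. How counts were taken, and how reads that match several copies were divided, is not given in the sources used here. The submitters' processing notes name mm9, while 52506 of 55450 rows, and 75 of 87 members, have coordinates identical to GENCODE M21 (GRCm38), which was used for transcripts, UTRs and snoRNAs.

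Counts were fitted with edgeR 4.0.16 in R 4.3.3: filterByExpr (21161 genes), TMM, 1 mean per group, the quasi-likelihood F test, and p-values adjusted by Benjamini-Hochberg over all genes tested, at 0.05. Copies were found with blastn 2.17.0. Libraries were grouped by their labels. A library of either Col1a1-miR-29b group has a column letter found in no title, so its counts were used by group, and 2 FPKM columns were not used. Total counts were 65898017 to 80332633, and intervals at these counts cover counting error only. Members, lists and tests were chosen with earlier results of these data known. The text names the paralogs, the members with a listed role, the 3 largest changes in each direction per comparison (or the largest where none passed), the 5 highest and lowest by FPKM, and at most 3 genes per direction in other lists. Fits were tested on simulated data. Alternatives were DESeq2 1.42.0, other scalings and filters, the groups alone, a replicate block, limma 3.58.1 on log2(FPKM + 1) and log2(FPKM + 0.1) of the deposited FPKM, counts divided by 4, since an earlier look at the data found an excess of multiples of 4, length and GC offsets, and leaving out each library. Sums of members with their copies, fits without the 2 unlettered libraries and medians without the members that range at least 2-fold were added after seeing the data.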

Additional observations from a re-analysis of the deposited data

How the results depend on the processing

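Of 481 alternative values of the counts of members called, their medians and their summed share, 402 stayed within 1.5 times the count or within the spread between replicates, and 79 did not. Counts of members past the threshold, in order for TGF-β in empty vector cells, TGF-β with Col1a1-miR-29b, TGF-β with CMV-miR-29b, Col1a1-miR-29b against empty vector without and with TGF-β, and CMV-miR-29b against Col1a1-miR-29b without and with TGF-β, were 1, 0, 1, 3, 8, 2 and 1. DESeq2 gave 1, 0, 3, 7, 11, 10 and 1, total counts 1, 0, 2, 3, 8, 1 and 1, and TMM without the members 5 for the fourth. At least 1 count in any library gave 0, 0, 1, 3, 5, 1 and 0, and at least 10 in every library 2 for the third and 5 for the fourth, as did counts divided by 4. The groups compared alone gave 0, 0, 0, 2, 2, 0 and 1, and limma on log2(FPKM + 1) and on log2(FPKM + 0.1) both gave 0, 0, 0, 3, 7, 0 and 0. Offsets for length and GC gave 1, 0, 1, 19, 34, 18 and 0. Sums with copies gave 0, 0, 0, 2, 7, 1 and 0, and fits without the 2 unlettered libraries 0, 0, 1, 1, 4, 0 and 0, both chosen after seeing the data. Except for the offsets, the shares of all genes called in these alternatives are not given here, so these counts cannot be set against them.

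Leaving out each library in turn gave 0 to 2, 0 to 1, 0 to 2, 0 to 3, 1 to 7, 0 to 7 and 0 to 0, and 0 to 1 for CMV-miR-29b against empty vector with TGF-β. In these fits the members' medians moved by less than the spread between replicates. Elsewhere 8 of 165 medians moved further: with offsets −0.16 and −0.17 for Col1a1-miR-29b against empty vector without and with TGF-β, 0.014 and −0.13 for CMV-miR-29b likewise, 0.18 for CMV-miR-29b against Col1a1-miR-29b without TGF-β and −0.17 for the difference in response with CMV-miR-29b, and 0.038 with limma on either FPKM scale for CMV-miR-29b against Col1a1-miR-29b without TGF-β. In 26 alternatives a median near 0 took the other sign. The median of the CMV-miR-29b response to TGF-β stayed under 0 in 21 alternatives, from −0.11 to −0.06. Rps27l with TGF-β turned to −0.024 with the offsets (edgeR adjusted p = 0.833). Of 320 alternative values for the 16 calls, each of a member in 1 comparison, 181 kept the call. The causes were not tested.

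The letters c, d and e were checked as a replicate block. Deviations from the group means correlated by 0.0155 on average for the 36 library pairs that share a letter and −0.00811 for the 70 that do not, on 11216 genes, so the letters were not taken as pairs. With the replicate block, which leaves out the 2 unlettered libraries, the counts were 0, 0, 1, 1, 2, 0 and 0. A lower total count widens the counting error of low members such as Rpl3l, at 0.14 to 0.48 CPM, more than that of the others.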
